A study of Mus musculus with 10 samples.

Results

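Transcription factor genes that define the B cell lineage, together with the Ikaros family, were followed across pluripotent cells, resting lymphocytes and helper T cell cultures. The 10 genes are Pax5, Ebf1, Spib, Spi1, Pou2af1, Irf8, Ikzf1, Ikzf2, Ikzf3 and Irf4, taken by symbol from 19025 measured genes, with the highest row used where a symbol had several. They were divided by what is known of them into 6 factors called B-restricted here (Pax5, Ebf1, Spib, Spi1, Pou2af1 and Irf8) and 4 factors shared by B and T cells (Ikzf1, Ikzf2, Ikzf3 and Irf4). The name is an assignment, since Spi1 and Irf8 also work in myeloid and dendritic cells. RNA-seq libraries of C57BL/6 mouse cells fell into 5 groups of 2. The first group was the B6N-22 embryonic stem (ES) cell line, grown with leukemia inhibitory factor on mouse embryonic fibroblasts whose division had been blocked with mitomycin C. Splenic B cells, taken by B220, and splenic CD4 T cells came from mice of 6 to 8 weeks and were isolated with magnetic beads to more than 98% purity. The fourth group was splenic CD4 T cells cultured for 5 days under T helper 2 (Th2) conditions, with 15 ng/ml IL-2 and 10 ng/ml IL-4. The fifth was the same culture with 10 nM trichostatin A (TSA), an inhibitor of histone deacetylases, added on day 2 and kept for 3 days. No vehicle is named for the untreated cultures, and whether the libraries of a group came from separate animals or cultures is not stated.

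Ebf1 and Pax5 specify and maintain the B cell programme, and Pax5 both activates B cell genes and represses genes of other lineages. PU.1 (Spi1) and Spi-B (Spib) are ETS factors that often bind DNA together with Irf4 or Irf8, and OCA-B (Pou2af1) is a coactivator of the octamer-binding factors in B cells. Ikaros (Ikzf1), Helios (Ikzf2) and Aiolos (Ikzf3) are zinc finger proteins that dimerize with one another and recruit chromatin remodelling and histone deacetylase complexes. Several of these genes also work outside B cells: Spi1 and Irf8 in myeloid and dendritic cells, Ikzf2 in regulatory T cells, and Irf4 in activated T cells and plasma cells.

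Values are FPKM, fragments scaled by transcript length and by library total, so that levels of different genes are on a per-length scale. The number of reads behind each value is unknown. Between 9652 and 11456 genes per library stood at 1 FPKM or more. Libraries of one group were compared over genes at 10 FPKM or more. Their log2 ratio had an SD of 0.042 in ES cells, 0.045 in B cells and 0.046 in CD4 T cells. In untreated Th2 cultures it was 0.299 and with TSA 0.319. Read sampling alone could give the small differences within the first 3 groups, and those pairs were counted as 1 sample each. Comparisons between those groups therefore carry no replicate test, and the cultures have n = 2. Summed T cell, B cell and ES markers were each highest in the group labelled so, though markers of other cells were present too. In CD4 T libraries the 18 B cell markers had a median of 6.07% of the B level, and 17 myeloid markers summed to 872 to 884 FPKM. The stated purity of more than 98% was not tested with these values. The summed FPKM of 12 T cell markers was 3068 to 3080 in CD4 T and 41.3 to 42.0 in B libraries, and that of 18 B cell markers was 631 to 637 and 8371 to 8384. ES markers such as Pou5f1 and Nanog summed to 2827 to 2829 in ES cells and to at most 2.76 in any lymphocyte or culture library.

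The promoters of 3 members are shown because these genes stand for the patterns described here: Spib and Pou2af1 were high in B cells and low in untreated cultures, and Irf4 was highest in the cultures. Each sequence is the 250 bases before an annotated start site, from RefSeq on GRCm38.p6, the assembly also called mm10, read 5′ to 3′ along the gene. Spib lies on the minus strand at chr7:44532072-44532321, Pou2af1 on the plus strand at chr9:51213440-51213689 and Irf4 on the plus strand at chr13:30748983-30749232. Capitals mark an octamer core (TGCAAAT) in Spib and Pou2af1, and a PU.1 box (GAGGAA, here as its reverse complement TTCCTC) in Irf4.
Spib: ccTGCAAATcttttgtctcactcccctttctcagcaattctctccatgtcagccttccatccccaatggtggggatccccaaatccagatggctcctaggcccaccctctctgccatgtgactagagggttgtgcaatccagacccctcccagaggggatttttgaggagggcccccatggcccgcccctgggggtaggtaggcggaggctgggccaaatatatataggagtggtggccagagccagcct
Pou2af1: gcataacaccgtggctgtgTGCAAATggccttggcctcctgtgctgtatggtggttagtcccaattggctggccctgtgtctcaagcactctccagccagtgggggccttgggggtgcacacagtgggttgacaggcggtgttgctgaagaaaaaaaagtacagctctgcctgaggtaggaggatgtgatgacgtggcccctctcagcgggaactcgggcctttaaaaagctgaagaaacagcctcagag
Irf4: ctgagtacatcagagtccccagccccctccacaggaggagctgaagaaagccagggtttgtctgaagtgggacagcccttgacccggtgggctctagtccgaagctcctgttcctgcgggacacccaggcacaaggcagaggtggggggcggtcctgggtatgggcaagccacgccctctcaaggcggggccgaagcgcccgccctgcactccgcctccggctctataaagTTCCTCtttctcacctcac

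The octamer core stood 248 to 242 bases before the Spib start and 231 to 225 bases before the Pou2af1 start. Of 32851 mouse promoter windows of this length, 3.56% held it on either strand. Spib and Pou2af1 were the only members in the promoter table that held it. Pax5 and Ebf1, also high in B cells and low in untreated cultures, did not hold it. None of the 7 members in the promoter table (Pax5, Ebf1, Spib, Pou2af1, Irf8, Ikzf1 and Irf4) held the whole octamer, ATGCAAAT, which contains that core and was in 1.6% of windows. The PU.1 box lay 19 to 14 bases before the Irf4 start and also occurred in an Ebf1 window, and 23.3% of windows held it. An Ikaros core (TGGGAA, in 21.6% of windows) was found in Ebf1 and Irf8. A composite interferon response element (GAAANN followed directly by GAAA, in 2.98%) was found in Ebf1, and an EBF core (CCCNNGGG, in 11.8%) in Ikzf1 and Spib. The 7 members had 10 windows between them, and the matches in Ebf1 did not all come from the same window. The percents are per window, so a member with several windows has more chances to hold a motif. The letters were searched on both strands, were picked with the expression values known, and describe these windows only.

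Pax5, the B cell commitment factor, was expressed in B cells at 445 and 440.3 FPKM. It stood at 20.9 and 21.1 in CD4 T cells and at 0.45 in both ES libraries, was listed at 0 in both untreated Th2 cultures, and reached 0.87 and 0.88 with TSA. The groups did not overlap, and B cells held the highest values. Ebf1, which acts with and upstream of Pax5, was lower than Pax5 in B and CD4 T cells and higher in both ES libraries. It stood at 57.3 in both B libraries, 2.72 and 2.76 in CD4 T cells, 0.02 and 0.08 in untreated cultures, and 0.62 and 1.52 in TSA-treated cultures. The ES libraries, at 1.61 and 1.78, lay just above the treated cultures, by less than the SD of 0.64 in the latter. Pax5 exceeded Ebf1 by a ratio of 7.77 and 7.68 in the B libraries and by 7.67 and 7.63 in the CD4 T libraries, so the ratio of this pair was nearly the same in both.

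Spib, the lymphoid ETS factor, stood at 359 and 355 FPKM in B cells and at 34.0 and 34.2 in CD4 T cells. Untreated cultures had 0.08 and 0.07, TSA-treated ones 1.01 and 1.80, and ES libraries 0.26 and 0.32. Spi1, which encodes PU.1, had a flatter profile. It stood at 74.4 and 75.4 in B cells, 28.2 and 28.8 in CD4 T cells, 0 and 0.10 in untreated cultures, 0.12 and 0.49 with TSA, and 1.05 and 0.86 in the ES libraries. The 2 treated values lay above both untreated ones by less than their own spread. Spib exceeded Spi1 by a ratio of 4.83 and 4.71 in B cells and by 1.21 and 1.19 in CD4 T cells.

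Pou2af1, the octamer coactivator, was at 371 and 374 FPKM in B cells and 29.7 and 31.2 in CD4 T cells. ES cells had 0.14 and 0.12, untreated cultures 2.10 and 3.60, and TSA-treated cultures 5.92 and 19.4 (SD 9.53). Both treated values lay above both untreated ones, and the treated libraries differed from each other more than the untreated ones did. Irf8, a factor of B, dendritic and myeloid cells, was the one B-restricted member above 10 FPKM in every culture library. It stood at 245 and 247 in B cells, 91.3 and 92.5 in CD4 T cells, 19.3 and 26.7 in untreated cultures, 17.7 and 23.4 in treated ones, and 0.49 in both ES libraries. The untreated and treated cultures overlapped.

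Among the shared factors, Ikzf1 (Ikaros) had the most even level in lymphoid cells. It stood at 133 and 132 FPKM in B cells, 181 and 179.5 in CD4 T cells, 73.5 and 64.8 in untreated cultures, 63.6 and 49.5 with TSA, and 0.37 and 0.43 in the ES line. CD4 T cells were highest. The treated cultures lay just below the untreated ones, with means of 56.6 ± 9.97 and 69.2 ± 6.14 (SD, n = 2). Ikzf2 (Helios) was detected above 5 FPKM in one group only. CD4 T cells had 13.5 and 13.9, against 0.54 and 0.52 in B cells, 0.21 and 0.18 in untreated cultures, 1.23 and 1.41 with TSA, and 0.40 and 0.44 in the ES line. The remaining groups all lay below 2 FPKM.

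Ikzf3 (Aiolos) was highest in B cells, at 304 in both libraries, and stood at 80.4 and 81.9 in CD4 T cells. Untreated cultures had 27.6 and 29.3, treated ones 87.4 and 58.0, and the ES libraries 0.11 and 0.20. The treated cultures, with a mean of 72.7 ± 20.8 (SD, n = 2), spanned the level of CD4 T cells, so the order of these 2 groups is within their spread. Irf4 alone was highest in the cultures. It stood at 54.7 and 54.9 in B cells, 12.7 and 13.1 in CD4 T cells, 0.01 and 0.02 in the ES line, 102 and 86.3 in untreated cultures, and 206 and 178 with TSA. All 4 culture libraries lay above both B libraries, and no groups overlapped.

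**Figure D1:**
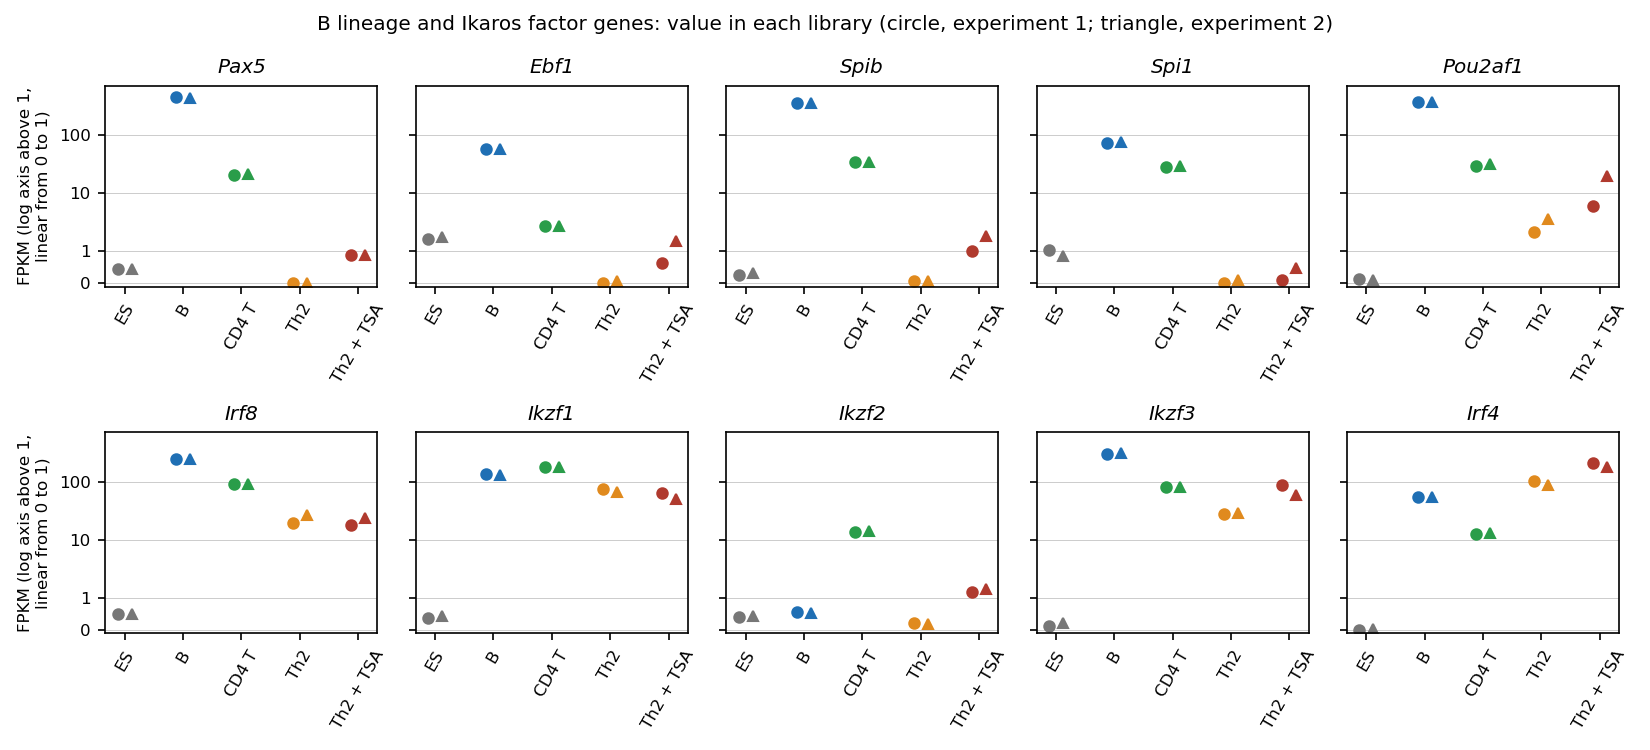
FPKM of each gene in each library (vertical axis, logarithmic above 1 and linear from 0 to 1) for ES cells, B cells, CD4 T cells, untreated Th2 cultures and TSA-treated Th2 cultures; circles are experiment 1 and triangles experiment 2. Pax5, Ebf1, Spib, Spi1, Pou2af1, Irf8 and Ikzf3 peak in B cells, Ikzf1 and Ikzf2 in CD4 T cells, and Irf4 in the TSA-treated cultures at 206 and 178.

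ES cells served as the non-lymphoid point of reference for both resting lymphocytes. All members were low there: the highest value in an ES library was 1.78 FPKM, for Ebf1. By a size rule, a log2 fold change of 2 or more on log2(FPKM + 1) with 5 FPKM or more in the higher group, 9 of the 10 members were higher in B than in ES cells, where 9.45% of 12907 genes passed in that direction and 22.8% in either. The exception was Ikzf2, at 0.11. The 9 members ran from Ebf1 at 4.44 to Pou2af1 at 8.37. In CD4 T against ES cells 9 of 10 also passed upward, beside 10.8% of all genes (22.6% in either direction), from Ikzf2 at 3.37 to Ikzf1 at 7.02, and the exception was Ebf1, at 0.47. Both comparisons use the same ES libraries.

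CD4 T cells were set against B cells to separate B-restricted from shared factors. Pax5, Ebf1, Pou2af1 and Spib passed the size rule downward in CD4 T cells, with log2 fold changes of -4.34, -3.96, -3.57 and -3.35. Spi1 (-1.37) and Irf8 (-1.41), though B-restricted by their assignment, did not pass it. Among the shared factors, Ikzf2 passed upward at 3.26, Irf4 passed downward at -2.0, Ikzf3 fell short at -1.89, and Ikzf1 stood at 0.44. This gives 5 members lower, beside 1.70% of 12907 genes, and 1 higher, beside 2.56%, with 4.27% in either direction. There is 1 sample on each side and no test. Irf4 and Ikzf3 sit at the threshold: Irf4 was at -1.98 without CD4 T replicate 1, leaving 4 members lower, and Ikzf3 passed at -2.16 after quantile normalization and at -2.05 after median-ratio scaling. The median was -3.46 over the 6 B-restricted members, -0.72 over the 4 shared members and 0.05 over all genes.

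Set as a percent of the B cell level, the members in CD4 T cells fell into separate ranges. Pax5 was at 4.74% and Ebf1 at 4.78%, Pou2af1 at 8.17% and Spib at 9.54%. The 18 B cell markers, surface and signalling genes such as Cd22 and Cd79a, had a median of 6.07% and a range of 4.71% to 22.1% in the same libraries. Btla alone set the upper end, and the next highest marker was Ly6d at 10.7%. Spi1 at 38.0% and Irf8 at 37.3% lay above every one of those markers, as did Irf4 at 23.5%, Ikzf3 at 26.7% and Ikzf1 at 136%. Markers of myeloid and dendritic cells, in which Spi1 and Irf8 are also expressed, were higher in CD4 T than in B libraries: 11 myeloid markers ranged from 130.3% to 559% of the B level and 5 dendritic markers from 191% to 448%. Over all 17 myeloid markers the summed FPKM was 872 to 884 in CD4 T and 413 to 414 in B libraries. Lyz2, the lysozyme of macrophages, was at 93.2 against 16.7, and Itgax, the integrin CD11c, at 44.3 against 9.89. The part of B cell, myeloid or dendritic RNA in the values of CD4 T libraries was not tested, and in bulk RNA fewer cells of a type and less RNA per cell cannot be told apart.

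**Figure D2:**
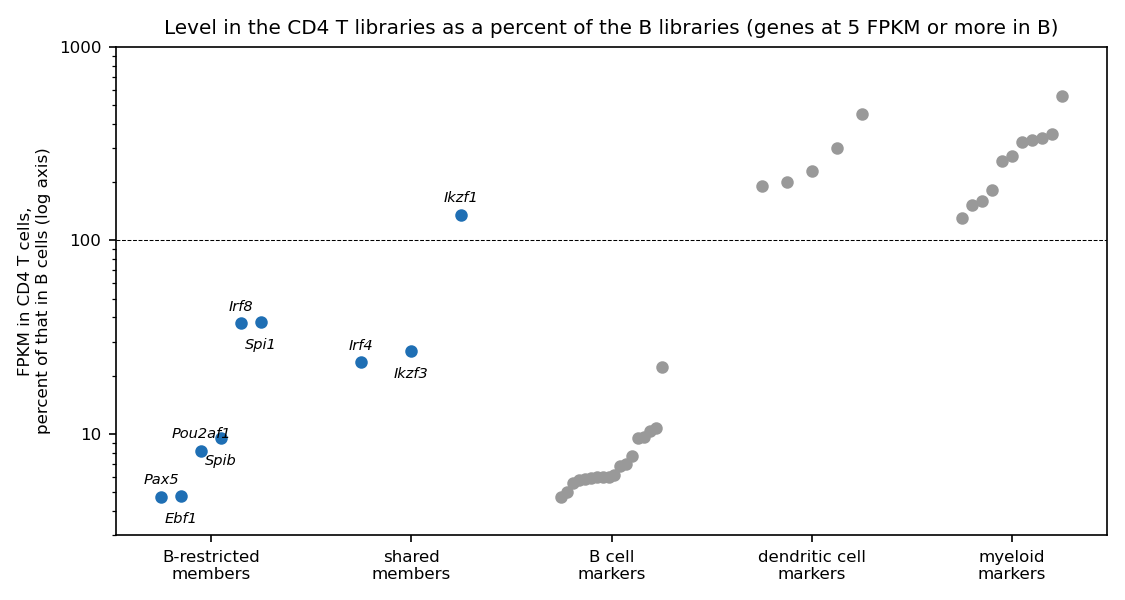
FPKM in CD4 T cells as a percent of FPKM in B cells (log axis, dashed line at 100%) for members and for cell type markers with 5 FPKM or more in B cells; each point is a gene, and Ikzf2 is absent because it is below that level in B cells. Pax5, Ebf1, Pou2af1 and Spib lie within the range of the B cell markers (4.71% to 22.1%), and Spi1 and Irf8, at 38.0% and 37.3%, lie above it. Btla alone sets the upper end of that range, and the next highest marker is Ly6d at 10.7%.

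Ikzf2 is itself on the list of 10 regulatory T cell genes. Of these, 9 passed the size rule upward in CD4 T against B cells, beside 2.56% of 12907 genes. Foxp3, which defines regulatory T cells, stood at 30.7 FPKM in CD4 T cells, 2.16 in B cells, 0.84 in untreated and 0.89 in TSA-treated cultures. The list split in the cultures. Against CD4 T cells, 4 of 10 genes rose and 5 fell in Th2 cultures, beside 16.9% and 38.1% of 12367 genes. Nt5e (17.1 to 0.615 FPKM), Folr4 (177 to 60.2) and Gpr83 (10.4 to 2.02) fell with Foxp3 and Ikzf2. Il2ra, Tnfrsf18, Capg and Ikzf4 rose. The summed FPKM of the list went from 448 to 452 up to 1281 to 1528. Most of that rise was in Il2ra and Tnfrsf18. Il2ra, the IL-2 receptor alpha chain, was at 682 in Th2 cultures against 20.0, and Tnfrsf18 at 400 against 66.8. Ikzf4 (Eos), another Ikaros family gene on that list, passed the size rule upward in CD4 T against B cells, at 2.67, and rose in Th2 cultures by 1.03 (SE 0.18, adjusted p = 0.0226).

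Th2 cultures were compared with the CD4 T cells of the kind they are grown from. The files of the 2 kinds of sample give transcript rows differently, and any difference in how they were made cannot be told apart from culture. With limma on log2(FPKM + 1), 8 of the 10 members were lower in the cultures and 1 was higher at a Benjamini-Hochberg adjusted p below 0.05, where 38.1% and 16.9% of 12367 genes were (54.9% in either direction). Spib fell by 5.03 on the log2 scale (SE 0.25, adjusted p = 0.00271) and Spi1 by 4.81 (SE 0.22, adjusted p = 0.00239). Pax5 fell from 21.0 FPKM to a listed 0, for which no fold is given (adjusted p = 0.000656). Irf8 fell by 1.97 (SE 0.29, adjusted p = 0.016) and Ebf1, already low in CD4 T cells, by 1.83 (SE 0.32, adjusted p = 0.0222). The size of these changes depends on the 1 added before the logarithm wherever a level is near 0: with 0.1 added, Ebf1 was at -4.27, Spib at -7.61, Spi1 at -7.66 and Ikzf2 at -5.55, and Irf8 at -2.01. Pou2af1 had a log2 fold change of -3.06 with an SE of 0.82 and did not pass (adjusted p = 0.0542), though it did with a filter of 5 FPKM in 2 libraries. Its untreated libraries, at 2.10 and 3.60, both lay far below CD4 T cells.

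The shared factors separated in the same comparison. Ikzf2 fell by 3.62 (SE 0.06, adjusted p = 0.000599), and Ikzf1 by 1.37 (SE 0.20, adjusted p = 0.0159). Ikzf3 fell by 1.48 (SE 0.29, adjusted p = 0.0293), a call that was lost after median-ratio scaling at -1.11. Irf4 rose by 2.77 (SE 0.17, adjusted p = 0.00349), with both cultures above both CD4 T libraries. The median change was -3.76 over the B-restricted members, -1.42 over the shared members and -0.28 over all genes. That shift of all genes became 0 after quantile normalization, under which 3230 genes were higher and 3313 lower, against 2087 and 4708 as deposited, and the directions of all members held. After median-ratio scaling it became -0.03, with 2876 higher and 3417 lower. Without untreated replicate 1, 4 members stayed lower (Pax5, Spib, Spi1 and Ikzf2), and without replicate 2 there were 5, these and Irf8. Irf4 remained higher in both. The markers of other cells in the CD4 T libraries moved too. Summed B cell markers went from 631 to 637 FPKM down to 19.7 to 23.4. Of these markers 17 of 18 were called lower, beside 38.1% of 12367 genes. Of the myeloid markers 13 of 15 tested and of the dendritic markers 5 of 6 tested were called lower, and C1qa, C1qb and C1qc, macrophage complement genes, were listed at 0 in the untreated cultures. Their part in the fall of the B-restricted factors was not tested.

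TSA-treated cultures were compared with untreated ones, which are also the cultures of the comparison before. By limma, 3 of 10 members were higher and none lower with TSA, beside 9.26% of 12907 genes higher and 4.14% lower (13.4% in either direction). At an unadjusted p below 0.05, 6 members were higher and still none lower, beside 22.5% and 14.4% of all genes. Irf4 rose by 1.02 on the log2 scale (SE 0.14, adjusted p = 0.0424), from 94.2 ± 11.26 to 192 ± 19.88 FPKM (SD, n = 2). Ikzf2 rose by 0.96 (SE 0.05, adjusted p = 0.0258), to a level still a small part of that in CD4 T cells. With 0.1 in place of 1 added, the change of Ikzf2 was 2.27 and that of Irf4 stayed at 1.02, so their sizes are not to be set side by side. Pax5 moved from a listed 0 to 0.87 and 0.88 FPKM (adjusted p = 0.0301), below the 1 FPKM used as the filter on low values. It passed that filter through the B and CD4 T libraries alone. Ikzf2, at 0.21 and 0.18 untreated and 1.23 and 1.41 treated, passed it through the CD4 T and treated libraries. Both of these calls rest on values near the floor. The call of Irf4 was lost with no filter on low values. Without either untreated replicate no member was called by limma (3 at an unadjusted p below 0.05 in each case), nor without treated replicate 2 (6 at that level), and without treated replicate 1 Ikzf2 alone was.

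The others did not pass. Their log2 fold changes were 1.65 for Pou2af1 (SE 0.67), 1.3 for Ikzf3 (SE 0.24, adjusted p = 0.0609), 1.14 for Spib (SE 0.21, adjusted p = 0.0589) and 0.94 for Ebf1 (SE 0.26). Spi1 was at 0.30, Irf8 at -0.15 and Ikzf1 at -0.29. With a filter of 5 FPKM in 2 libraries, Spib and Ikzf3 passed as well and 5 members were called, and Spib also passed with 0.1 added before the logarithm, at 3.05, where Ebf1 was at 2.88 without passing. Counted by libraries, 8 of 10 members had both treated values above both untreated ones and 1, Ikzf1, had both below, where 36.7% and 27.1% of all genes did. Among all genes the calls split into 1195 higher and 534 lower, and into 890 and 725 after quantile normalization.

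**Figure D3:**
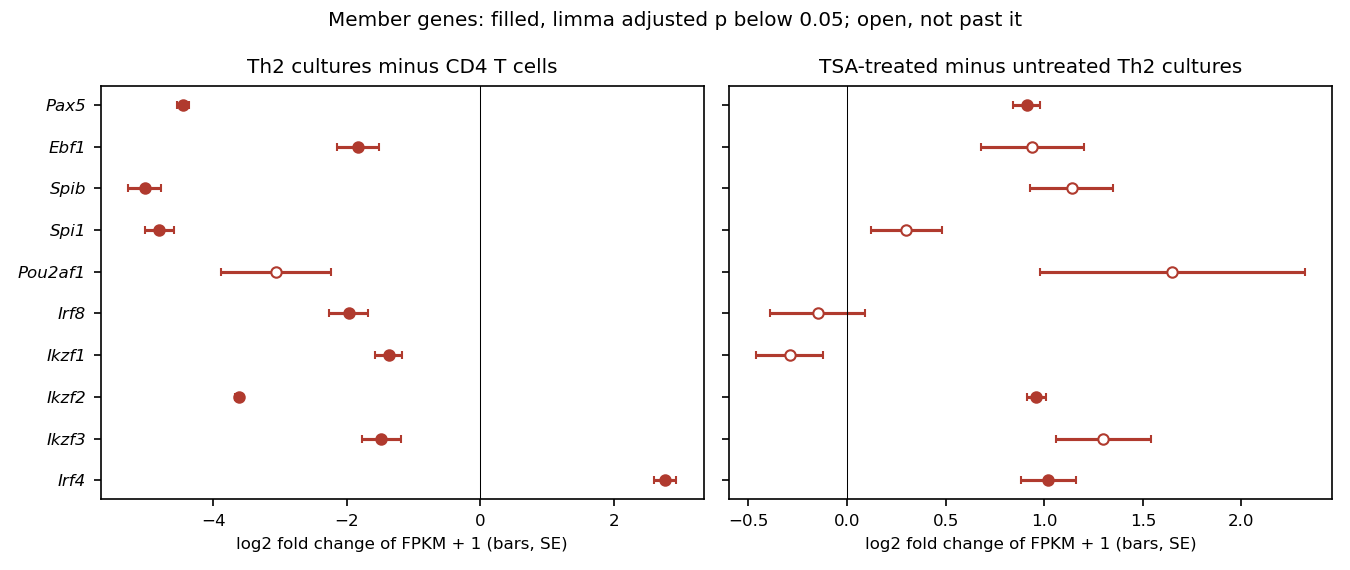
Log2 fold change on log2(FPKM + 1) with its SE for each member, in Th2 cultures against CD4 T cells (left) and in TSA-treated against untreated cultures (right); filled points have a limma adjusted p below 0.05. On the left 8 members are filled to the left of 0 and Irf4 to the right at 2.77; on the right Pax5, Ikzf2 and Irf4 are filled. The size of the Pax5 points depends on the 1 added before the logarithm, since Pax5 is listed at 0 in untreated cultures.

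The B-restricted factors moved in the treated cultures beside B cell markers as a whole. All 18 B cell markers had both treated values above both untreated ones, where 36.7% of 12907 genes did. Of these markers 3 were called higher, where 9.26% of genes were. Their summed FPKM went from 19.7 to 23.4 up to 61.8 to 106. As a percent of the B cell level, the markers had medians of 0.085% and 0.148% in untreated replicates 1 and 2, and of 0.44% and 1.07% in the treated ones. The 6 B-restricted members had medians of 0.029% and 0.137%, then 0.682% and 1.65%. Within the treated group, replicate 2 was the higher one for 6 of 6 B-restricted members, 16 of 18 B cell markers and 1 of 4 shared members. In the untreated group it was the higher one for 4 of 6, 11 of 18 and 1 of 4, in that order. Treated replicate 2 also had the larger summed FPKM over all genes, at 468844.3 against 444951.7. How many of all genes were higher in treated replicate 2 was not counted. Cd79a, a chain of the B cell receptor, was at 0.95 and 2.24 FPKM untreated and 3.34 and 11.2 treated, in replicate order, an order shared with Pou2af1. The summed myeloid markers went from 171 to 184 FPKM up to 450.0 to 468, with 3 of 17 called higher and 2 lower. Most of that sum was Ly6c2 (59.0 untreated to 272 treated) and Cst3 (103 to 178, not called). Itgam (0.09 to 2.05) and Mpeg1 (0.01 to 1.92) were also called higher, and Emr1 (6.04 to 0.45) and Fcgr3 (5.71 to 1.59) lower. Csf1r and Lyz2 stayed below 1 FPKM in every culture library. Whether other cells in the cultures take part in these values was not tested. Irf8 stood apart from the other B-restricted members: it was at 7.85% and 10.8% of the B cell level untreated and at 7.19% and 9.50% treated.

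**Figure D4:**
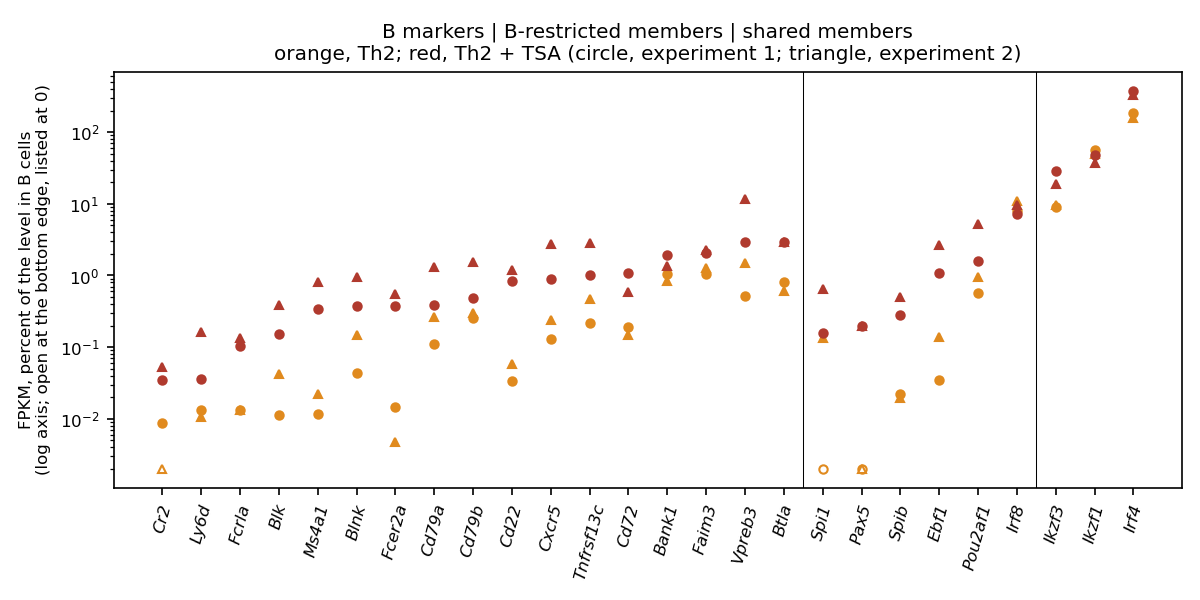
FPKM in each Th2 library as a percent of the B cell level (log axis) for 17 of the 18 B cell markers, the 6 B-restricted members and the 3 shared members above 5 FPKM in B cells, with orange for untreated and red for TSA-treated cultures, circles for experiment 1 and triangles for experiment 2; open symbols at the bottom edge are listed at 0. All 17 markers shown and 5 of 6 B-restricted members have both red points above both orange ones, whereas Irf8 overlaps and Irf4 stands above 100%. Of all genes, 36.7% have both treated values above both untreated ones.

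Related factors were compared within each library by the ratio of their FPKM. Irf4 and Irf8, sister interferon regulatory factors that can partner PU.1 or Spi-B on the same sites, changed rank. The ratio of Irf4 to Irf8 was 0.223 and 0.222 in B cells and 0.139 and 0.142 in CD4 T cells, but 5.28 and 3.24 in untreated and 11.6 and 7.60 in TSA-treated cultures. Irf8 was the more abundant in resting lymphocytes and Irf4 in every culture library. The ratio of Ikzf3 to Ikzf1 was 2.29 and 2.31 in B cells, 0.445 and 0.456 in CD4 T cells, 0.375 and 0.451 in untreated cultures and 1.37 and 1.17 with TSA. Aiolos transcripts thus exceeded Ikaros transcripts in B cells and in both treated cultures, and were fewer in the other lymphoid groups. The ratios were not tested. The 4 shared factors made up 24.1% of the summed FPKM of the members in both B libraries and 58.2% and 57.8% in CD4 T cells. They made up 90.4% and 85.5% in untreated cultures, and 93.2% and 85.8% in treated ones. Their own sum was lower in untreated cultures, at 203 and 181 FPKM, than in CD4 T cells, at 287 and 288. In treated cultures it was 358 and 286. The sum of the B-restricted members was 207 and 210.4 in CD4 T cells, 21.5 and 30.5 in untreated cultures, and 26.2 and 47.5 in treated ones.

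**Figure D5:**
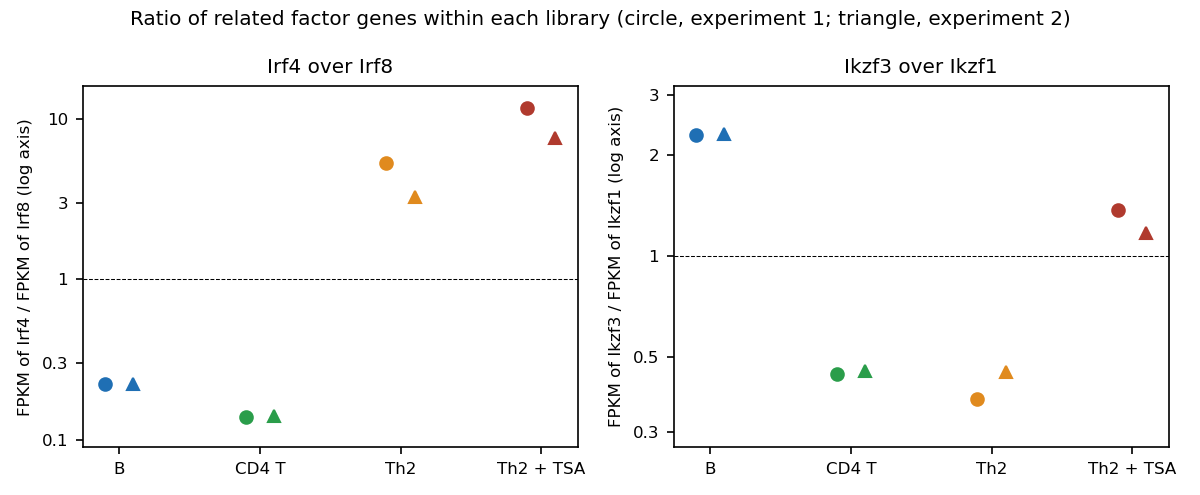
Ratio of FPKM of Irf4 to Irf8 (left) and of Ikzf3 to Ikzf1 (right) in each library (log axes, dashed line at 1); circles are experiment 1 and triangles experiment 2. Irf4 exceeds Irf8 in the 4 culture libraries alone (3.24 to 11.6), and Ikzf3 exceeds Ikzf1 in B cells and in the TSA-treated cultures (1.17 and 1.37).

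Genes that the B lineage factors are known to activate, 12 genes such as Cd79a, Blk and Blnk, were counted in the same comparisons. All 12 passed the size rule downward in CD4 T against B cells, beside 1.70% of 12907 genes. They ran from Cd55, a complement regulator, at -2.70 to Fcer2a, the low-affinity IgE receptor, at -4.34. In Th2 cultures 11 of 12 fell against CD4 T cells, beside 38.1% of 12367 genes. Cd72, a surface regulator of B cell receptor signalling, fell by 4.69 (SE 0.35, adjusted p = 0.0048), and Vpreb3 did not pass at -1.87. With TSA all 12 had both treated values above both untreated ones, beside 36.7% of all genes. Only Cd22 and Fcer2a were called higher, beside 9.26% of all genes. Of these 12 genes 11 are also among the B cell markers, so the lists are not separate measurements.

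Among 30 transcription factors that work beside the members, 6 rose and 20 fell in Th2 cultures against CD4 T cells. Of all 12367 genes 16.9% rose and 38.1% fell. Xbp1, which drives the secretory programme of plasma cells, rose to 297 FPKM from 38.0 (log2 fold change 2.93, SE 0.09, adjusted p = 0.00134), and Batf, the AP-1 factor that binds with Irf4, rose to 254 from 38.0 (2.66, SE 0.45, adjusted p = 0.0211). Prdm1, Gata3, Ikzf4 and Nfkb1 also rose. The naive T cell factor Tcf7 fell to 15.6 from 557, and Bcl11a, a factor needed for early B cell development, to 0.005 from 17.9. The octamer-binding factors that Pou2af1 coactivates differed in level: Pou2f1 (Oct-1) stood at 15.7 in B cells and 13.3 in CD4 T cells, and Pou2f2 (Oct-2) at 101 and 21.9. Both fell in the cultures.

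With TSA 4 of the 30 rose and 2 fell, beside 9.26% and 4.14% of 12907 genes. Pou2f2 rose by 1.48 (SE 0.10, adjusted p = 0.0282), with values of 1.91 and 1.61 untreated and 6.72 and 6.70 treated. Bach2, a repressor of plasma cell and effector T cell fates, rose by 1.39 (SE 0.11, adjusted p = 0.0301), and Foxo1, a factor of naive lymphocytes, by 0.88 (SE 0.06, adjusted p = 0.0282). Bcl6 was called at levels below 1 FPKM. Gata3, the Th2 master regulator, fell by 0.84 (SE 0.13, adjusted p = 0.0485), from 80.3 and 98.1 to 49.0 and 49.2, and Runx1 fell by 0.57 (SE 0.08, adjusted p = 0.042). In CD4 T against B cells 5 of the 30 passed the size rule upward and 4 downward, beside 2.56% and 1.70% of 12907 genes. The T cell factors Tcf7 (5.96) and Bcl11b (5.33) led upward, and Mef2c (-3.45) and Bcl11a (-2.56) downward.

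The complexes that Ikaros proteins recruit were measured through 17 genes of the NuRD, Sin3 and CtBP complexes, among them the histone deacetylases that TSA inhibits. None of the 17 passed the size rule between CD4 T and B cells, where 4.27% of 12907 genes passed in either direction. The largest difference among those at 5 FPKM or more was in Chd3, a NuRD remodeller, at 145 against 38.3 FPKM (log2 fold change 1.89). In Th2 cultures Rbbp7, Sin3b and Hdac1 rose, and Chd3, Mbd2 and Mta3 fell. These are 3 higher and 3 lower of 17, beside 16.9% and 38.1% of 12367 genes. With TSA, Hdac1 rose by 0.50 (SE 0.06, adjusted p = 0.0402), from 79.7 and 76.4 to 108 and 113. Mbd3 fell by 1.10 (SE 0.17, adjusted p = 0.0485) and Mta2 by 0.59 (SE 0.06, adjusted p = 0.0333). With TSA, then, 1 of 17 was called higher and 2 lower, beside 9.26% and 4.14% of 12907 genes. The median of the 17 was -0.31, beside 0.02 for all genes.

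The genes nearest to 4 of the members in profile were found by the distance between their centred log2(FPKM + 1) means over the 5 groups, among 10697 genes. Nearest to Pax5 were Blk (distance 0.48), a B cell tyrosine kinase, Fcer2a (0.69) and the complement receptor gene Cr2 (0.74), all B cell genes. Nearest to Ikzf2 were Prrt1 (0.45), Adh1 (0.56) and Ift80 (0.62), though Ift80 has higher levels than Ikzf2, from 5.3 FPKM in untreated cultures to 67.5 in CD4 T cells. Ikzf3 had no close neighbour: H2-Oa (1.17), an antigen presentation gene, H2-Q8 (1.28) and the protease gene Ctss (1.32) came first. Irf4 was the most isolated, with Lta (1.41), the lymphotoxin gene, Lpxn (1.95) and Srgn (1.99). Lta shared the rise from 46.0 FPKM in untreated to 228 in treated cultures, whereas Lpxn and Srgn had lower values there. With 5 groups these distances describe profiles and carry no test.

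The members lie on separate chromosomes except for 3 on chromosome 11. On GRCm38.p6 these are Ikzf1 at chr11:11684962-11772930, Ebf1 at chr11:44618100-45008096 and Ikzf3 at chr11:98464610-98546031. Ebf1 spans 389997 bases and Pax5, at chr4:44524748-44710694, spans 185947, the longest genes among the members. Spib, at chr7:44525995-44532087, is the shortest at 6093, and its level in B cells was above that of Ebf1 on the per-length scale.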

How the data were processed

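The authors deposited FPKM, made with Bowtie 0.12.8, TopHat 1.3.2 and Cufflinks 2.0.2 on mm10, per the submitters' processing notes. Not given in the sources used here are their settings, strand use and read numbers. Rows without a symbol (315) or with a date in its place (30) were named by accession from RefSeq. The 4 Th2 files repeat 1 value for all rows of a symbol and the others do not, so the kinds may have been made differently; among the members only Ikzf1 has 2 rows. Members and gene lists were chosen with earlier results of these data known. Near-identical pairs were averaged, leaving 7 samples. limma 3.58.1 in R 4.3.3, with a spread prior that follows the mean, was fitted to log2(FPKM + 1) of 12907 genes at 1 FPKM or more in at least 2 libraries (2 residual degrees of freedom), two-sided, with Benjamini-Hochberg adjustment over all genes, and was tested on simulated data. The lone CD4 T sample is taken to vary like the cultures, and p-values reflect spread between libraries that may be technical only. Genes at 0 throughout one kind of file were left out of Th2 against CD4 T cells (12367 remained). All 10 members passed the filter, Pax5 and Ikzf2 through 4 libraries each. For Pax5 these were the B and CD4 T libraries, and for Ikzf2 the CD4 T and TSA-treated ones. Named genes were drawn from the members, the 2 highest and 2 lowest changes per list at 5 FPKM or more, partner and Ikaros complex genes called under TSA, and the 3 nearest profiles of 4 members; not all are printed, a gene so named is not reported here, and a few others were chosen after their values were seen. Row collapsing, pseudocount, filter, scaling, samples, spread prior and blocking were varied.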

Additional observations from a re-analysis of the deposited data

How the results depend on the processing

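Depth is unknown for FPKM, so no counting error is given, and values below 1 FPKM, such as Pax5 with TSA, may rest on few reads. With n = 2 and 2 residual degrees of freedom, leaving out 1 library changed many calls; a group left with 1 sample is taken to vary like the others. Without 1 library at a time, members lower in Th2 against CD4 T cells numbered 4 to 8, all genes higher 942 to 2082 and lower 2244 to 4708; members higher with TSA numbered 0 to 1, all genes higher 0 to 259 and lower 0 to 14. At an unadjusted p below 0.05 the latter 2 counts were 1708 to 2788 and 886 to 1362. The TSA change of Irf8 ranged from -0.37 to 0.07, turning to 0.04 without treated replicate 1 and to 0.07 without untreated replicate 2. Without a filter 570 genes were higher and 201 lower with TSA, and with a filter of 5 FPKM in 2 libraries 5 members were higher. After quantile normalization 3230 genes were higher in Th2 than in CD4 T cells. With 10 separate samples, which counts near-identical libraries as replicates and so understates the spread, 3369 genes were higher in Th2 than in CD4 T cells, and with TSA 7 members and 3902 genes were higher and 2872 lower. Where the construction does not show it, the cause was not tested.

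Same-numbered Th2 cultures deviated together (r = 0.61 over 10225 genes, across genes, which are not independent). The labels call the numbers experiments but do not say what an experiment shares, and there are 2 pairs only. The main fit did not use the number. With the replicate number as a block, 9 members were lower in Th2 than in CD4 T cells, Pou2af1 being added, and 3 were higher with TSA; over all genes 2664 were higher and 5381 lower, and with TSA 1235 and 661.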
